A study of Mus musculus with 10 samples.

Results

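The genes described here are 8 mouse solute carriers through which metformin has been proposed to cross cell membranes. They are Slc29a4 (the plasma membrane monoamine transporter, PMAT), Slc22a3 (organic cation transporter 3, OCT3), Slc22a4 and Slc22a5 (the carnitine/organic cation transporters OCTN1 and OCTN2), Slc19a2 and Slc19a3 (the thiamine transporters THTR-1 and THTR-2), Slc6a4 (the serotonin transporter, SERT) and Slc47a1 (multidrug and toxin extrusion protein 1, MATE1). They were picked by gene symbol from the 45707 rows of the gene table, and all 8 were found. Jejunal RNA was sequenced from 5 control mice (Vil-Cre) and 5 mice with NDI1 (Vil-Cre:NDI1), 1 library each, to ask whether NDI1 changes the jejunal transcriptome. All 10 mice carried Cre recombinase under the villin promoter, which is active in intestinal epithelium, so the Vil-Cre controls express Cre as well. Vil-Cre:NDI1 mice in addition carried NDI1, the NADH dehydrogenase of Saccharomyces cerevisiae, behind a lox-stop-lox sequence at the ROSA26 locus. The mice were male littermates of 8 to 12 weeks that were fasted for 16 to 18 h, were given water by gavage and were killed 1 h later. No library described here came from a mouse given metformin, so the values are levels of the carriers before any exposure to the drug.

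Metformin is a hydrophilic base that is positively charged at the pH of the gut, and it crosses lipid membranes poorly without a carrier. PMAT and OCT3 carry organic cations, including monoamines, down their electrochemical gradient. OCTN2 takes up carnitine with sodium, and OCTN1 is best known as the carrier of ergothioneine. THTR-1 and THTR-2 take up thiamine, itself a cation, and SERT clears serotonin from around cells with sodium and chloride. MATE1 exchanges organic cations for protons and is best known for releasing cations from kidney and liver cells, so among these genes it stands for export at least as much as for entry.

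NDI1 had 0 or 1 read in every Vil-Cre library and 1002 to 2659 reads in the Vil-Cre:NDI1 libraries, as their labels say. The libraries held 10145705 to 12371530 reads on genes. All 11 enterocyte markers examined had reads in every library, and the 6 pancreatic acinar markers summed to at most 3.03 normalized counts. The libraries differed in genes of the ileum, the stretch of gut beyond the jejunum. Normalized counts were summed over 4 such genes. They were Fabp6 (ileal bile acid binding protein), Slc10a2 (the ileal bile acid transporter), Pyy and Nts (gut hormones made mostly in the distal intestine). The sum was 2429 in Vil-Cre 5, 1772 in Vil-Cre:NDI1 4 and 1345 in Vil-Cre 2. It was 703 in Vil-Cre:NDI1 5 and 640 in Vil-Cre 1, against 198 to 268 in the remaining libraries. Fabp6 alone ranged from 0 in Vil-Cre 4 to 1477 in Vil-Cre 5. The 3 libraries with the highest sums are therefore left out in an alternative beside the results below. That alternative still holds Vil-Cre:NDI1 5 and Vil-Cre 1, whose sums were also above those of the remaining libraries. Hepatocyte markers summed to 64.7 to 1583 normalized counts and were highest in Vil-Cre 1. In whole tissue, fewer cells of a type and less RNA per cell cannot be told apart.

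The sequences of these genes bear on how well reads can be assigned to them. Slc22a4 and Slc22a5 lie 91462 bases apart on chromosome 11, beside a close relative, Slc22a21. The coding sequence of Slc22a5 was 90.5% identical to that of Slc22a21 over 1674 aligned bases, against 77.2% between Slc22a4 and Slc22a5 and 63.3% between Slc19a2 and Slc19a3. The longest stretch that Slc22a5 shares letter for letter with Slc22a21 is 157 bases, longer than a read of 100 bases, and it is shown because a read that falls inside it belongs equally to both genes. It spans coding bases 1289 to 1445 of Slc22a5 within 1 exon, at chr11:53867528-53867684 on the minus strand of GRCm38 in the GENCODE M21 annotation.
Slc22a5 and Slc22a21: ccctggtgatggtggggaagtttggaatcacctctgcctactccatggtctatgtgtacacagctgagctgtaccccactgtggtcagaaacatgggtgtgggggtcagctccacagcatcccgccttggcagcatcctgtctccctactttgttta
In all, 12.9% of the 100-base windows of Slc22a5 transcripts also occur in Slc22a21 transcripts, so the Slc22a5 level carries some uncertainty from shared reads. Slc22a21 itself had a mean of 160.8 ± 54.7 normalized counts in controls and of 161.9 ± 35.2 with NDI1 (SD, n = 5 each). For Slc22a3, 7.16% of such windows occur in Plg, which encodes plasminogen, a liver product. The exons of these genes overlap over 420 bases on opposite strands, and no strand setting is given in the sources used here. None of the 100-base windows of the other 6 transporters occurs in another gene.

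Upstream sequence (the 250 bases before the RefSeq start, GRCm38.p6) was found for 7 of the 8 genes, all but Slc47a1. The Slc29a4 window, at chr5:142701851-142702100, lies inside the annotated gene, which spans chr5:142692512-142722490 on the plus strand. It is thus upstream of the RefSeq start but not of the first annotated base of the gene. The windows fell into CpG-rich and CpG-poor ones. Slc22a5 had 30 CpG dinucleotides, Slc22a4 had 26, Slc19a2 had 23, Slc6a4 had 18 and Slc29a4 had 16, whereas Slc19a3 had 8 and Slc22a3 had 5, near the median of 6 over 32851 windows. The 2 thiamine transporters and the 2 OCTN genes are shown, because within each family the genes share substrates or a locus. Capitals mark GGGCGG (the GC box bound by Sp1-type factors) and CAAAG (part of the site of HNF4, a regulator of enterocyte genes), each searched on both strands and therefore also written CCGCCC or CTTTG.
Slc19a2: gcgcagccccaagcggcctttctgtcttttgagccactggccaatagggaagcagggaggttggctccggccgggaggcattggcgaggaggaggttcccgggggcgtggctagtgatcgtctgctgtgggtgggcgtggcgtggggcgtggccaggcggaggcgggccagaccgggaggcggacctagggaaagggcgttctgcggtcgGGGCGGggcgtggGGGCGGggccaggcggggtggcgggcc
Slc19a3: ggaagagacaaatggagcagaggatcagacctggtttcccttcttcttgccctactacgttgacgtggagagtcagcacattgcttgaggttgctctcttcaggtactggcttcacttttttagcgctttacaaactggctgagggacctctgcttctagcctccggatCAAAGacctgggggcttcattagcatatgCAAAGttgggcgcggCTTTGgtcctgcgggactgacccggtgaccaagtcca
Slc22a4: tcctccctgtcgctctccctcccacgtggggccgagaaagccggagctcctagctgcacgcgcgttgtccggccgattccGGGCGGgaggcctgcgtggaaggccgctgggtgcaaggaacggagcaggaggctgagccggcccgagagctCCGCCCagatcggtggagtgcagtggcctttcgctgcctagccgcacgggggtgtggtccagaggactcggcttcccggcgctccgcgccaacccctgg
Slc22a5: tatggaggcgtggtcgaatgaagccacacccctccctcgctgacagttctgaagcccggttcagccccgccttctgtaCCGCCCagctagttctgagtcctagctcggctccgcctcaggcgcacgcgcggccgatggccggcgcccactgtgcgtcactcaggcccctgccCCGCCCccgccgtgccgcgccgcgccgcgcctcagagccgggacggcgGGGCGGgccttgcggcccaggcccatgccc
These windows lie at chr1:164248796-164249045 on the plus strand, and at chr1:83038449-83038698, chr11:54028105-54028354 and chr11:53891704-53891953 on the minus strand. The Slc19a2 window holds 2 GC boxes and no CAAAG, whereas the Slc19a3 window holds 3 CAAAG motifs and no GC box. The windows of Slc22a4 and Slc22a5 hold 2 and 3 GC boxes. Among all windows, 32.7% hold a GC box and 48.6% hold CAAAG, so a match to either is common and describes only the letters. Of the windows not shown, that of Slc29a4 holds 9 GC boxes, some overlapping, and that of Slc22a3 holds 4 CAAAG motifs. The window of Slc6a4, one of the CpG-rich ones, holds 3 GC boxes and 3 CAAAG motifs and is the only one with both.

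With all 10 libraries, expression of NDI1 was not accompanied by a detectable change in any of the 8 transporters. All 8 passed the filter on low values (10 or more normalized counts in 5 or more of the mice), and 0 of 8 passed an adjusted p of 0.05 in limma, where the background over the 14301 genes tested was 0.00699% (1 gene, NDI1 itself). None of the 8 had an unadjusted p under 0.05, against 4.24% of all genes tested, and in none did the 5 mice of 1 genotype lie wholly above or below those of the other, against 0.699% of all genes. Neither edgeR nor DESeq2, run on the reads of all 10 libraries, called any of the 8. The log2 fold change is here always Vil-Cre:NDI1 against Vil-Cre and, in limma, on log2(normalized count + 1). In limma it was above 0 for 6 of 8 genes, and for 5 of 8 when libraries were rescaled to equal totals. With array weights, edgeR and DESeq2 it was above 0 for 4 of 8 each, and the mean normalized count was higher in Vil-Cre:NDI1 for 4 of 8. The median log2 fold change over the 8 genes in limma was 0.09, against 0.01 over all genes tested. For 5 genes (Slc22a3, Slc22a4, Slc22a5, Slc19a2 and Slc6a4) the 95% interval from all 10 libraries excluded a 2-fold change in either direction. The intervals of Slc29a4, Slc19a3 and Slc47a1 did not, so for these a change of that size was not excluded. For Slc22a3, at 21 to 71 reads per library, the margin was small. Its interval ran from -0.63 to 0.85, and without Vil-Cre 4 its log2 fold change was 0.29 with a standard error of 0.34. The smallest p that the exact permutation test can give with 5 mice against 5 is 0.00794. Without the 3 libraries richest in ileal markers 0 of 8 genes were called, and with the level of those markers as a covariate again 0 of 8. On the 8 libraries other than Vil-Cre 3 and Vil-Cre 4, edgeR called 0 of 8 and DESeq2 called 1, Slc19a3. Those 8 were chosen after seeing the data, and the choice takes out the highest Slc19a3 values among the Vil-Cre mice.

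**Figure D1:**
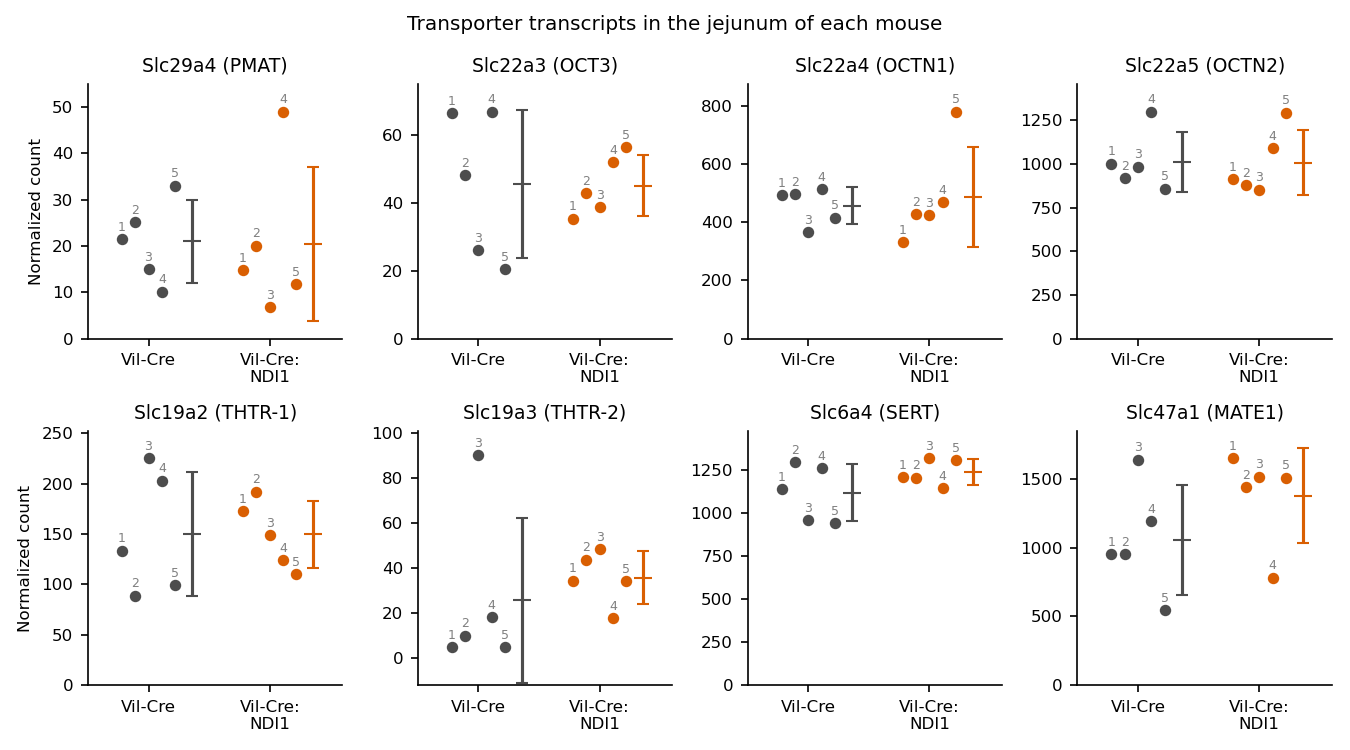
Normalized count of each of the 8 transporters (vertical axes, linear) in the 5 Vil-Cre (grey) and 5 Vil-Cre:NDI1 mice (orange), with mouse numbers beside the points and the mean ± SD at the right of each group. The genotypes overlap for every gene, and Slc19a3 in Vil-Cre 3 (90.2) and Slc47a1 in Vil-Cre:NDI1 4 (781) stand apart from the other mice of their genotype.

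**Figure D2:**
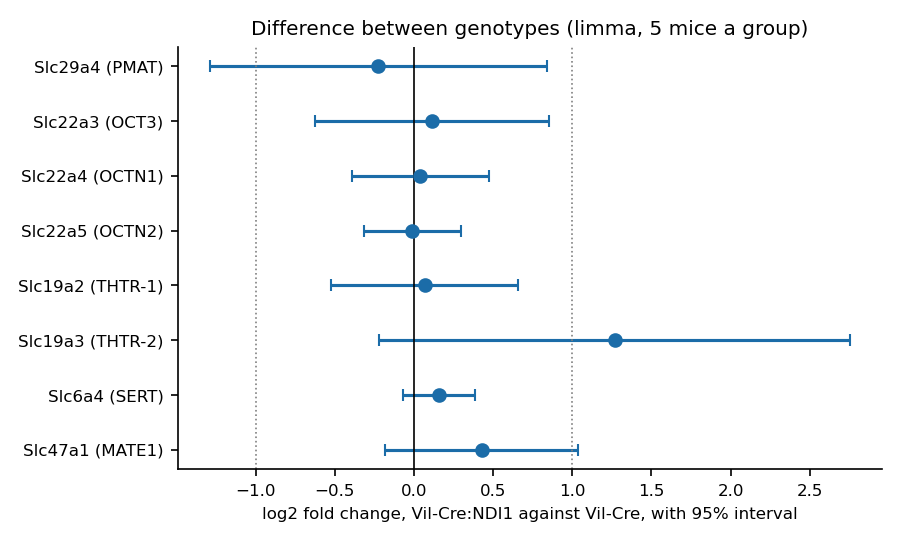
Log2 fold change of each transporter between genotypes from limma (points) with its 95% interval (bars); dotted lines mark a 2-fold difference. Every interval includes 0, and the interval is widest for Slc19a3, from -0.22 to 2.75.

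PMAT and OCT3, the carriers of monoamines and other organic cations, were low and did not separate the genotypes. Slc29a4 (chr5:142692512-142722490, plus strand) had normalized counts of 21.5, 25.2, 15.0, 10.1 and 33.0 in Vil-Cre mice 1 to 5 and of 14.7, 20.04, 6.78, 49.0 and 11.7 in Vil-Cre:NDI1 mice 1 to 5. Each value rests on 7 to 50 reads, and the lowest and the highest mouse were both Vil-Cre:NDI1. The means were 20.96 ± 8.89 and 20.4 ± 16.7 (SD), a log2 fold change of -0.22 with a standard error of 0.49 (exact permutation p = 0.960, 5 mice a group). Slc22a3 (chr17:12418960-12507704, minus strand) was at 66.3, 48.2, 26.0, 66.7 and 20.4 in Vil-Cre and at 35.3, 42.8, 38.7, 51.9 and 56.3 in Vil-Cre:NDI1. The Vil-Cre mice held both the lowest and the highest values and enclosed all 5 Vil-Cre:NDI1 mice. Group means were 45.5 ± 21.8 and 45.02 ± 8.87, with a log2 fold change of 0.11 and a standard error of 0.34 (exact permutation p = 0.960). Plg, whose exons overlap those of Slc22a3, had 17.3 ± 17.1 normalized counts in Vil-Cre, highest in Vil-Cre 1 at 43.9, and 5.23 ± 2.03 in Vil-Cre:NDI1. The part of Plg reads in the Slc22a3 level was not tested.

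The thiamine transporters differed from each other in level and in steadiness. Slc19a2 (chr1:164249046-164265385, plus strand), the more abundant, was at 133.6, 88.6, 225, 203 and 99.1 in Vil-Cre and at 173, 192, 149.1, 124 and 110.3 in Vil-Cre:NDI1. Its means were 149.995 ± 61.5 and 149.7 ± 33.6, a log2 fold change of 0.07 with a standard error of 0.27 (exact permutation p = 1.0). The 5 Vil-Cre:NDI1 mice all lay between the lowest and the highest Vil-Cre mouse.

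Slc19a3 (chr1:83012523-83038448, minus strand) showed the widest spread of the 8 genes. Its normalized counts were 4.67, 9.85, 90.2, 18.2 and 4.86 in Vil-Cre and 34.3, 43.7, 48.4, 17.6 and 34.0 in Vil-Cre:NDI1. Vil-Cre 3 held the highest value of all 10 mice, whereas 3 of the other 4 Vil-Cre mice lay below every Vil-Cre:NDI1 mouse. The gene reached 10 normalized counts in 5 Vil-Cre:NDI1 but 2 Vil-Cre mice, so it passed the filter mainly through 1 genotype, and the lowest values rest on 5 reads. The log2 fold change was 1.27 with a 95% interval from -0.22 to 2.75 (adjusted p = 0.998 in limma), and the exact permutation test on the normalized counts gave p = 0.651. Vil-Cre 3 lowered the log2 fold change. Without that mouse it was 1.93 with an adjusted p of 0.843 in limma. An alternative chosen after seeing the data left out both Vil-Cre 3 and Vil-Cre 4, the highest Vil-Cre values (90.2 and 18.2). The Vil-Cre mice kept, at 4.67, 9.85 and 4.86, all lay below every Vil-Cre:NDI1 mouse. DESeq2 then gave 2.49 with an adjusted p of 0.000380 and edgeR gave 2.45 with an adjusted p of 0.285. Because the choice itself set the groups apart, these p-values cannot decide whether the genotypes differ. With all 10 libraries DESeq2 gave 0.48 with an adjusted p of 0.994. Across the alternatives tried the adjusted p thus ranged from 0.000380 to 1.00. Ileal markers moved with this gene in part. The 3 libraries with the highest ileal marker sums, Vil-Cre 5, Vil-Cre:NDI1 4 and Vil-Cre 2, were at 4.86, 17.6 and 9.85. Vil-Cre 1, the lowest at 4.67, had a sum of 640, whereas Vil-Cre:NDI1 5, at 34.0, had 703. Vil-Cre 3 and Vil-Cre 4, at 90.2 and 18.2, had sums of 213 and 242. Without those 3 libraries the log2 fold change was 0.92 with an adjusted p of 1.00, and with the level of the ileal markers as a covariate it was 0.99 with an adjusted p of 0.929 in limma.

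The OCTN genes were abundant and close to equal between genotypes. Slc22a4 (chr11:53983123-54028090, minus strand) had normalized counts of 493, 496, 365, 514 and 416 in Vil-Cre and of 331, 427, 424, 468 and 779 in Vil-Cre:NDI1. Vil-Cre:NDI1 5 was the highest and Vil-Cre:NDI1 1 the lowest of all mice. The means of 457 ± 63.8 and 486 ± 171 gave a log2 fold change of 0.04 with a standard error of 0.20 (exact permutation p = 0.849), and without Vil-Cre:NDI1 5 the log2 fold change was -0.14. Slc22a5 (chr11:53864542-53891660, minus strand) had 1001, 918, 985, 1299 and 858 in Vil-Cre and 913, 880.1, 852, 1092 and 1295 in Vil-Cre:NDI1. Most mice lay close together, with Vil-Cre 4 and Vil-Cre:NDI1 5 above the rest. Mean levels were 1012 ± 170.3 and 1006 ± 186, a log2 fold change of -0.01 with a standard error of 0.14 (exact permutation p = 0.944). The 95% interval ran from 0.80-fold to 1.23-fold.

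SERT was the steadiest of the transporters. Slc6a4 (chr11:76998603-77032340, plus strand) had normalized counts of 1134, 1292, 956, 1257 and 937 in Vil-Cre and of 1206, 1204, 1316, 1141 and 1305 in Vil-Cre:NDI1. Vil-Cre 3 and Vil-Cre 5 were the lowest mice, and the other 8 lay between 1134 and 1316. The means were 1115 ± 165 and 1234 ± 74.5, with a log2 fold change of 0.16, a standard error of 0.10 and an interval from 0.95-fold to 1.31-fold (exact permutation p = 0.206). Its coefficient of variation over all 10 mice was 11.6%, the smallest of the 8.

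MATE1 had the largest numerical difference in counts, within the spread between mice. Slc47a1 (chr11:61343401-61378345, minus strand) had normalized counts of 953, 952, 1640.0, 1191 and 543 in Vil-Cre and of 1651, 1439, 1517, 781 and 1508 in Vil-Cre:NDI1. Of the 5 Vil-Cre:NDI1 mice 4 exceeded every Vil-Cre mouse other than Vil-Cre 3, and Vil-Cre:NDI1 4 lay below 4 of the 5 controls. The means were 1056 ± 401 and 1379 ± 343, a log2 fold change of 0.43 with a standard error of 0.28 and an interval from 0.88-fold to 2.05-fold (exact permutation p = 0.190, limma adjusted p = 0.998). Individual mice moved this value: it was 0.21 without Vil-Cre 5, 0.61 without Vil-Cre 3 and 0.62 without Vil-Cre:NDI1 4, and in none of these was the gene called after adjustment. Without the 3 libraries richest in ileal markers it was 0.31. Without Vil-Cre 3 and Vil-Cre 4 it was 0.75 in edgeR (adjusted p = 0.487) and 0.76 in DESeq2 (adjusted p = 0.0857). Those mice held the highest Vil-Cre values (1640.0 and 1191), so these p-values cannot decide whether the genotypes differ.

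The 8 transporters spanned a wide range of levels in the jejunum. Per kilobase of exon, so that genes of different length can be compared, the mean level over the 10 mice was 360 ± 116 normalized counts per kb for Slc47a1, 329 ± 54.8 for Slc22a5, 259 ± 30.0 for Slc6a4 and 185 ± 48.2 for Slc22a4 (SD, n = 10). It was 39.0 ± 12.2 for Slc19a2, 10.0 ± 3.48 for Slc22a3, 9.98 ± 8.53 for Slc19a3 and 7.23 ± 4.398 for Slc29a4. The median of all genes tested was 44.5, so the 4 most abundant transporters lay above it and the other 4 below. Slc47a1 stood at percentile 89.1 of the genes tested and Slc29a4 at percentile 13.2. MATE1, OCTN2, SERT and OCTN1 made up 29.5%, 27.6%, 21.9% and 15.5% of the summed level of the 8 genes, and THTR-1 3.26%. OCT3, THTR-2 and PMAT each made up less than 1%.

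Within each mouse, neighbours in this order were compared by an exact sign-flip permutation test over 7 pairs. Slc47a1 and Slc22a5 did not differ beyond their spread (1.05-fold, higher in 5 of 10 mice, adjusted exact p = 0.809). Slc22a5 exceeded Slc6a4 by 1.26-fold and Slc6a4 exceeded Slc22a4 by 1.43-fold, each in 9 of 10 mice (adjusted exact p = 0.00684). The steps down to Slc19a2 (4.79-fold) and from Slc19a2 to Slc22a3 (3.89-fold) held in 10 of 10 mice, again with an adjusted exact p of 0.00684. The 3 rarest transcripts, Slc22a3, Slc19a3 and Slc29a4, could not be ordered (adjusted exact p = 0.593 and 0.809). Which length is used matters for Slc6a4 alone among the abundant genes: its annotated exons cover 4531 bases but its longest transcript 2796. With the length of the longest transcript its level was 420.2, above that of Slc47a1 at 408 and of Slc22a5 at 330. The order of Slc22a5 and Slc6a4 given above was thus reversed, so it depends on the length used and not only on the mice. Slc6a4 and Slc47a1 did not differ with that length (adjusted exact p = 0.542).

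**Figure D3:**
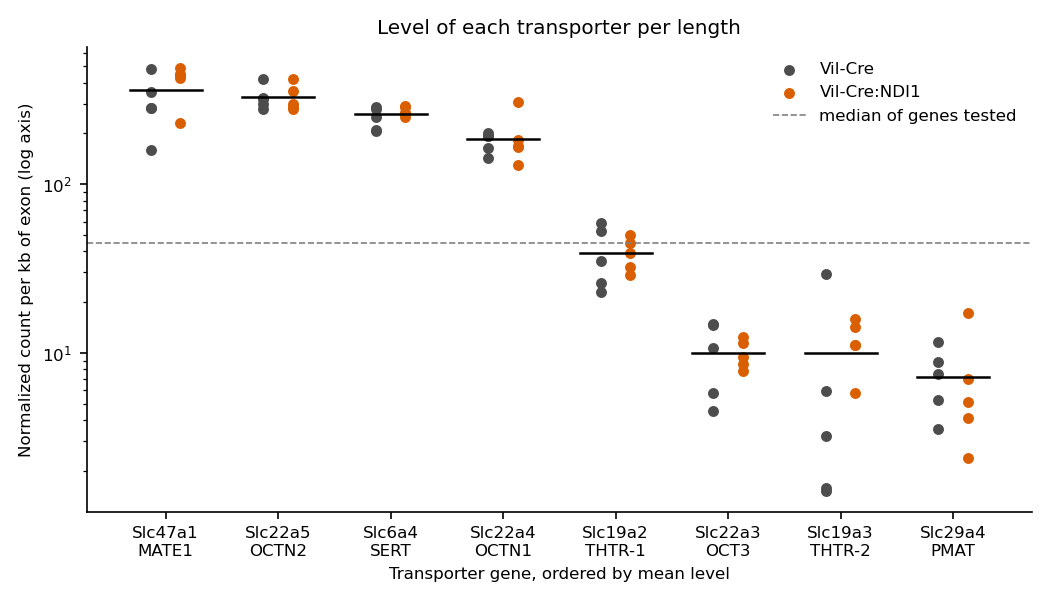
Normalized count per kb of exon (log axis) of each transporter in the 5 Vil-Cre (grey) and 5 Vil-Cre:NDI1 mice (orange), ordered by the mean over 10 mice (black bars); the dashed line is the median of the genes tested, 44.5. Slc47a1, Slc22a5, Slc6a4 and Slc22a4 lie above that line in every mouse, and Slc22a3, Slc19a3 and Slc29a4 lie below it in every mouse.

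How much a transporter varied between mice of 1 genotype differed widely among the 8. The residual SD on the log2 scale, compared with all genes tested, was at percentile 97.3 for Slc19a3, 92.1 for Slc29a4, 81.7 for Slc22a3, 77.2 for Slc47a1 and 73.96 for Slc19a2. It was at percentile 59.9 for Slc22a4, 39.5 for Slc22a5 and 20.7 for Slc6a4. The 3 most variable genes are also the 3 with the fewest reads, and low counts raise this SD. Slc47a1 is not among them, with 559 to 1684 reads per library.

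By Pearson's r, MATE1 and THTR-2 rose with the level of enterocyte markers from mouse to mouse, but neither relation passed by Spearman's rho. How many of all genes tested relate as strongly to these markers was not counted. Whether the relation is particular to these transporters was therefore not tested. The 8 genes were each related to the mean log2 level of enterocyte, smooth muscle and enteric neuron and glia markers, 24 relations in all. Enterocyte levels were lowest in the 3 libraries richest in ileal markers, at 14.16 in Vil-Cre 5, 14.77 in Vil-Cre 2 and 14.78 in Vil-Cre:NDI1 4. Vil-Cre:NDI1 5, next in ileal markers, had the highest level at 15.29. The 2 marker levels were thus partly bound together across mice, and their parts in these relations were not tested apart. Slc47a1 rose with the enterocyte markers with Pearson's r = 0.95 (permutation p = 0.00035, adjusted p = 0.0084), and Spearman's rho was 0.83 (permutation p = 0.00497, adjusted p = 0.119). Leaving out Vil-Cre 5 and Vil-Cre 2, the mice farthest from the median marker level, gave r = 0.90. Slc19a3 gave r = 0.81 (permutation p = 0.00205, adjusted p = 0.0246) and rho = 0.77 (permutation p = 0.0130, adjusted p = 0.155), with r = 0.76 after the same mice were left out. With both measures centred within each genotype, r was 0.93 for Slc47a1 (adjusted permutation p = 0.00552) and 0.75 for Slc19a3 (adjusted permutation p = 0.252). Both relations missed the threshold without Vil-Cre 5, at r = 0.91 and 0.80 (adjusted permutation p = 0.0552 and 0.115), and without the 3 libraries richest in ileal markers, at r = 0.83 and 0.82 over 7 mice (adjusted permutation p = 0.341 for both). That of Slc19a3 also missed it without Vil-Cre 2, Vil-Cre:NDI1 1, Vil-Cre:NDI1 2 or Vil-Cre:NDI1 3 (adjusted permutation p = 0.0587 to 0.0768), and Slc19a2 passed without Vil-Cre:NDI1 5 (r = 0.79, adjusted permutation p = 0.0414). With all 10 mice no relation to smooth muscle or to neurons and glia passed, and the relation of Slc29a4 to the enterocyte markers was negative (r = -0.66, rho = -0.64, adjusted permutation p = 0.309).

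**Figure D4:**
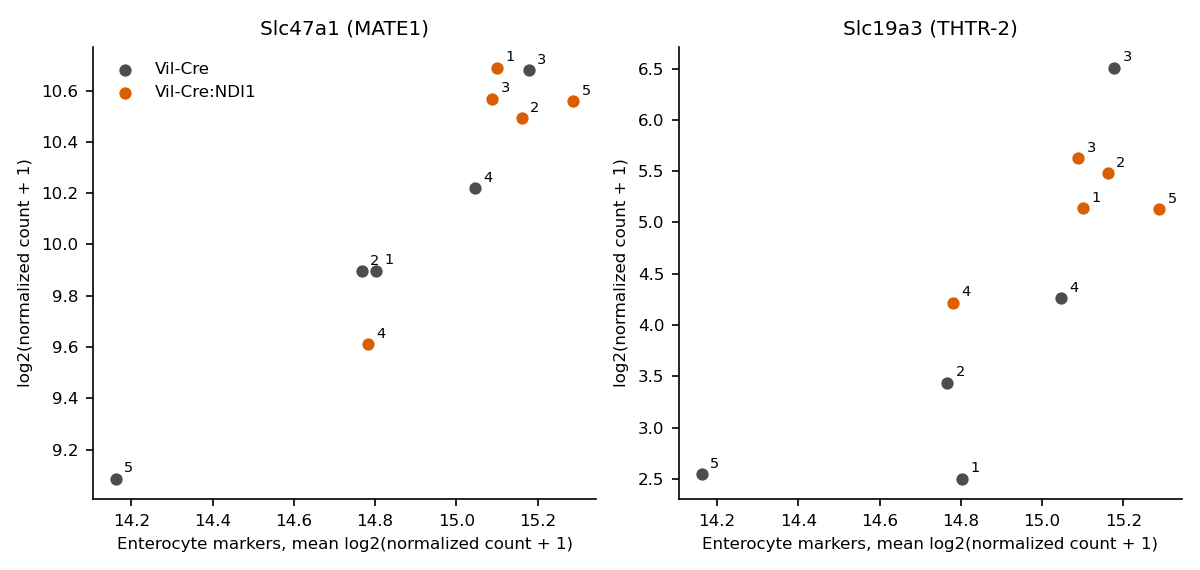
Log2(normalized count + 1) of Slc47a1 (left) and Slc19a3 (right) against the mean log2(normalized count + 1) of 11 enterocyte markers in each mouse, Vil-Cre in grey and Vil-Cre:NDI1 in orange with mouse numbers beside the points. Slc47a1 lies close to a line (r = 0.95) with Vil-Cre 5 lowest on both axes, and Slc19a3 scatters more (r = 0.81).

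Several of these genes stood at an extreme in the 3 libraries richest in ileal markers, PMAT in the opposite direction to MATE1. The 3 libraries with the highest ileal marker sums, Vil-Cre 5, Vil-Cre:NDI1 4 and Vil-Cre 2, had the 3 lowest Slc47a1 values, 543, 781 and 952, in the same order. The same libraries had the 3 highest Slc29a4 values, 33.0, 49.0 and 25.2. They were also the 3 lowest in enterocyte markers. Vil-Cre:NDI1 5, next with an ileal sum of 703, followed neither pattern, with Slc47a1 at 1508 and Slc29a4 at 11.7. Vil-Cre 1, with a sum of 640, had Slc47a1 at 953, close to Vil-Cre 2, and Slc29a4 at 21.5. Vil-Cre 2 and Vil-Cre 5 also had the lowest Slc19a2 values, 88.6 and 99.1. In Slc22a3, Slc22a4, Slc22a5 and Slc6a4 the 3 libraries richest in ileal markers were spread among the others, although Vil-Cre 5 was lowest in Slc22a3 and Slc6a4. Slc22a4 stood at 496, 416 and 468 in Vil-Cre 2, Vil-Cre 5 and Vil-Cre:NDI1 4, inside the range of the other mice. This pattern was noticed in these data and is given as values without a test, and whether the pieces of gut came from different positions was not tested.

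**Figure D5:**
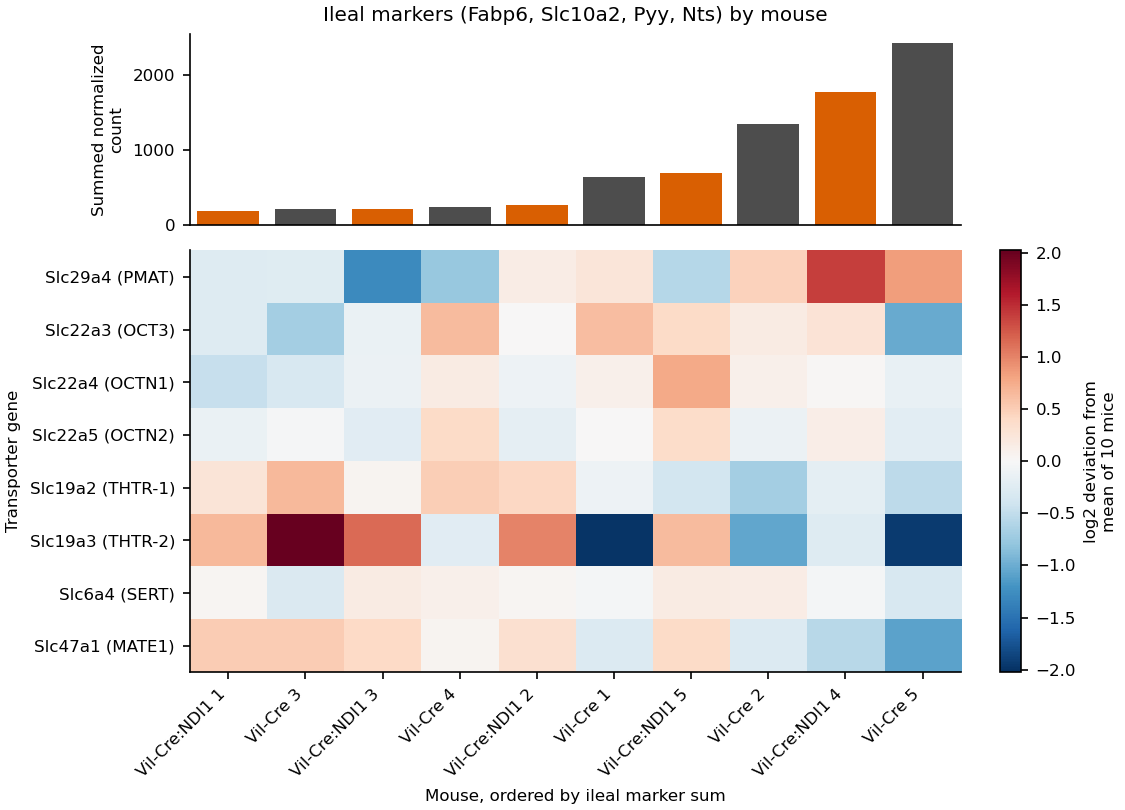
Upper panel: summed normalized count of the ileal markers Fabp6, Slc10a2, Pyy and Nts in each mouse (Vil-Cre grey, Vil-Cre:NDI1 orange), in rising order. Lower panel: log2(normalized count + 1) of each transporter in the same mice as a deviation from its mean over 10 mice; Slc47a1 falls below its mean in Vil-Cre 2, Vil-Cre:NDI1 4 and Vil-Cre 5 at the right, where Slc29a4 is above its mean.

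Between the transporters themselves, 28 pairs were related across the 10 mice and none passed the adjusted threshold. The closest was Slc19a3 with Slc47a1 (r = 0.85, permutation p = 0.00183, adjusted p = 0.0512), with rho = 0.82 (permutation p = 0.00593, adjusted p = 0.0830). Leaving out the 2 mice farthest from the median of Slc19a3, Vil-Cre 1 and Vil-Cre 5, gave r = 0.80. In each pair the 2 farthest mice are those of the gene named first. That pair passed without Vil-Cre 1 (r = 0.90, adjusted permutation p = 0.0269) and without Vil-Cre:NDI1 4 (r = 0.88, adjusted permutation p = 0.0142). Slc29a4 ran against Slc47a1 (r = -0.75, permutation p = 0.0111, adjusted p = 0.156, rho = -0.75), and r was -0.76 without the 2 farthest mice. The neighbours Slc22a4 and Slc22a5 gave r = 0.70 (permutation p = 0.0197, adjusted p = 0.170) and rho = 0.67, with r = 0.52 without the 2 farthest mice. Slc22a3 and Slc22a4 gave r = 0.62 (permutation p = 0.0591, adjusted p = 0.207) and rho = 0.87 (permutation p = 0.0021, adjusted p = 0.0588).

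The genes whose pattern over the 10 mice was most like that of each transporter, by Pearson's r among the 14301 genes tested, are given as a description. For Slc47a1 they were Sucla2 (a subunit of mitochondrial succinyl-CoA synthetase) at r = 0.99 and Bco2 (a mitochondrial carotenoid-cleaving enzyme) at 0.99. For Slc19a3 they were Gstm6 (a glutathione transferase) at 0.94 and Abhd2 at 0.93, and for Slc19a2 Paqr9 at 0.95 and Sp5 (a zinc finger factor induced by Wnt signalling) at 0.94. Slc29a4 was closest to G3bp1 (a stress granule protein) at 0.94 and Abracl at 0.93, and Slc22a3 to Eif4ebp2 (a repressor of translation) at 0.94 and Zc3h11a at 0.92. Slc22a4 was closest to Trappc6a at 0.94 and Slc25a37 (mitoferrin, a mitochondrial iron importer) at 0.94, and Slc22a5 to Gpd1l at 0.90 and Kmt2b (a histone methyltransferase) at 0.90. Slc6a4 was closest to Esrra (oestrogen-related receptor alpha) at 0.90 and Pcgf2 (a Polycomb protein) at 0.90. With 10 mice and 14301 candidates, some genes reach such values for any pattern.

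Genes that handle the natural substrates of these carriers were also not called between genotypes. In the list of genes of thiamine use, such as the enzymes that need it as a cofactor, 12 of 12 genes were tested and 0 rose or fell, with a median log2 fold change of 0.02. In the carnitine list 9 of the 10 genes found were tested and 0 were called. Aldh9a1, an enzyme of carnitine synthesis, was at 4680 ± 665 and 5307 ± 734 (log2 fold change 0.18), and Crot, the peroxisomal octanoyltransferase, at 1591 ± 577 and 1669 ± 251 (0.13).

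In the serotonin list 8 of 13 genes were tested and 0 were called after adjustment, although 2 had an unadjusted p under 0.05 in limma, against 4.24% of all genes tested. They were the monoamine oxidases that break serotonin down. Maob had 1612 ± 356 normalized counts in controls against 2158 ± 422 with NDI1 (log2 fold change 0.43, adjusted p = 0.998 in limma), and Maoa at 7462 ± 787 and 9030.4 ± 1331 (log2 fold change 0.27, adjusted p = 0.998). The genotypes overlapped for both. Among 12 scaffolds and regulators of cation carriers 0 were called and the median log2 fold change was 0.11. The smallest p values there were those of Ppara, a nuclear receptor for fatty acids, at 352 ± 147 and 436 ± 71.4 (0.39), and Nr1i3, the nuclear receptor CAR, at 698 ± 313 and 904 ± 176 (0.50).

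Over the whole Slc19a, Slc22a, Slc29a and Slc47a families, to which 7 of the 8 transporters belong, 34 genes were in the table. Of these, 17 were tested, 9 were too low for the filter and 8 had no read in any library. None was called, 10 of 17 had a log2 fold change above 0 and the median was 0.04. The smallest p belonged to Slc29a1 (ENT1, an equilibrative nucleoside transporter), the relative of PMAT, with 244 ± 5.88 normalized counts in controls against 203 ± 17.9 with NDI1. Its log2 fold change was -0.27 (limma adjusted p = 0.998), and the 5 mice of each genotype did not overlap, which held for 0.699% of all genes tested.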

How the data were processed

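Normalized counts per gene were analysed for 5 Vil-Cre and 5 Vil-Cre:NDI1 jejunum libraries. After trimming with trimGalore!, single-end reads were mapped by the authors to GRCm38 plus the NDI1 sequence (STAR), quantified per gene (Salmon) and scaled by DESeq2 size factors. What they deposited is thus normalized counts (a signal), rather than raw counts. The annotation release and strand setting are not given in the sources used here. No per-sample column was left unused (0). Each library's smallest value above 0 was taken as 1 read, and 100% of values were whole multiples of it within 0.001. In Vil-Cre 3 and Vil-Cre 4 that value was close to 1 (1.00 and 1.01), and tests on reads were also run on the other 8 libraries. This choice was made after seeing the data. A value close to 1 is no fault in a library and gives no ground to leave it out. It was nearly as close in Vil-Cre:NDI1 1 (0.980) and Vil-Cre:NDI1 4 (0.979), which were kept.

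Genotypes were compared with limma 3.58.1 (R 4.3.3) on log2(value + 1), with the trended eBayes prior. The 14301 genes that reached 10 in 5 or more mice were tested and p-values were adjusted by Benjamini and Hochberg's method. The edgeR 4.0.16 quasi-likelihood and DESeq2 1.42.0 Wald tests on recovered reads were alternatives, because the deposited values are not raw counts. Exact permutation tests used all assignments of mice to genotypes, and relations used 100000 permutations. Lengths came from the exon union of GENCODE M21, and promoters from RefSeq. All tests were two-sided. Tests were checked on simulated data with 5 mice a group: in 14043 genes, limma found 11.9% of the 1.5-fold changes put in, 52.2% of the 2-fold ones and 86.4% of the 4-fold ones. For the same changes edgeR found 11.9%, 53.7% and 89.4%, and DESeq2 found 40.3%, 74.6% and 95.5%. False calls were 8 in limma, 6 in edgeR and 64 in DESeq2. Genes other than the transporters were named by a rule: the 2 of each list with the smallest p, the 2 most like each transporter, and ileal or enterocyte markers where a library stood apart or a relation passed. The genes so picked from the thiamine list are not reported here. The transporters, lists and tests were chosen with earlier results of these data known. The counts carry counting error, which the replicate spread includes.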

Additional observations from a re-analysis of the deposited data

Results flagged for a closer look

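Among 16 groups of 5 mice (8 transporters in 2 genotypes), 2 held a mouse whose gap to the next mouse was too large a share of the group's range by Dixon's criterion (above 0.71), where chance gives about 0.8 in 16. Slc19a3 was at 90.2 normalized counts in Vil-Cre 3, where the remaining controls had 4.67 to 18.2, a gap of 0.84 of the range. Slc47a1 was at 781 in Vil-Cre:NDI1 4, where the remaining mice of that genotype had 1439 to 1651, a gap of 0.76 of the range. Vil-Cre 3 had the highest enterocyte marker sum of the Vil-Cre mice, 596303 against 350757 to 553855, and a low ileal marker sum of 213. Vil-Cre:NDI1 4 had the lowest enterocyte marker sum of its genotype, 525189, and the highest ileal marker sum of its genotype, 1772 against 198 to 703. The part of these markers in either value was not tested.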

How the results depend on the processing

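No transporter was called by limma, edgeR or DESeq2 on all 10 libraries, with other pseudocounts, filters, scaling or weights, with each mouse left out, or with the replicate block. That is 0 of 8 under each, except with the filter at 50, which left 5 of the 8 to test (0 of 5). Replicate numbers did not pair the mice (correlations of deviations from -0.12 to 0.14), and with the block 1 gene in all was called. Some alternatives were added after seeing the data. They were tests on reads of 8 libraries, leaving out the 3 libraries richest in ileal markers, and those markers as a covariate. Of these, DESeq2 on 8 libraries called 1 transporter, Slc19a3, and 2 genes of the lists. Slc19a3 itself belongs to 1 of the lists, so these counts may overlap. Over all genes DESeq2 on 8 libraries called 269, against 31 on all 10 libraries and 1 with limma. The calls on 8 libraries rest on leaving out Vil-Cre 3 and Vil-Cre 4 without a fault in either, so they cannot decide whether the genotypes differ. The direction of small fold changes was not stable. Slc22a3 was at -0.080 with array weights, -0.028 with edgeR, -0.019 with DESeq2, -0.0081 and -0.0019 with edgeR and DESeq2 on 8 libraries, and -0.19 without the 3 libraries richest in ileal markers. Slc22a4 was at -0.022 with equal totals and -0.064 with array weights. Slc22a5 was at 0.11 and 0.12 with edgeR and DESeq2 on 8 libraries. Slc19a2 was at -0.0093 with edgeR, -0.0015 with DESeq2, 0.48 with both on 8 libraries, -0.26 without the 3 libraries and -0.067 with ileal markers as a covariate. Leaving out each mouse in turn gave -0.60 to 0.067 for Slc29a4, -0.13 to 0.29 for Slc22a3, -0.14 to 0.16 for Slc22a4, -0.11 to 0.082 for Slc22a5 and -0.10 to 0.24 for Slc19a2. Slc19a3 (0.93 to 1.93), Slc6a4 (0.10 to 0.21) and Slc47a1 (0.21 to 0.62) stayed above 0. The cause was not tested. In the level order 4 of 7 neighbours differed with other pseudocounts and with each mouse left out, and 3 of 7 with the length of the longest transcript. The relations to cell type markers fell from 2 to 1 with a pseudocount of 8 and with values centred within genotype, to 0 without the 3 libraries, and ranged from 0 to 3 with each mouse left out. Pairs of transporters ranged from 0 to 1. Slc29a4 and Slc19a3 rest on as few as 7 and 5 reads in a library, which limits the changes that could be detected in them.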
